A study of Mus musculus with 6 samples.

Results

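NRF2, encoded by Nfe2l2, is a transcription factor that switches on antioxidant and detoxifying genes in hepatocytes. KEAP1 holds NRF2 in the cytoplasm and hands it to a CUL3 ubiquitin ligase for degradation. When electrophiles modify cysteines of KEAP1, NRF2 escapes, pairs with a small MAF protein and binds antioxidant response elements in its target genes. Acetaminophen (APAP) is oxidized in the liver to an electrophile that consumes glutathione, and the pathway is known for its part in the defense against APAP. The genes described here are Nfe2l2, Keap1 and 8 classical NRF2 targets, chosen by symbol. All 10 were found among the 34745 genes of the table, and all 10 passed the filter on low counts.

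WT mouse livers were collected 12 hours after an i.p. injection of APAP at 300 mg/kg, or after saline, for which the labels give no time, and the mice were fasted for 12 hours before the injection. The study's mice were C57BL/6J males, while the records of these samples give neither sex nor age. Counts were analysed for APAP replicates 1 and 3 and for 3 saline libraries, WT1, WT2 and WT3, with totals between 13378445 and 15976339. The latter carry a genotype that all groups share in place of a treatment, and were taken as saline by elimination, on which each fold change depends. The study describes its experiments as biologically repeated, but the labels do not say that the libraries of a group came from separate mice. P-values may therefore measure only the spread between these libraries. That spread was far beyond sampling noise within each group (chi-square per degree of freedom 46.7 to 99.8). Whether part of it was technical was not tested. Levels are given as CPM, the counts relative to library size after TMM scaling, a method that corrects for library composition. A gene is said to have risen or fallen at an adjusted p under 0.05 in the quasi-likelihood test of edgeR, adjusted by Benjamini-Hochberg over all 13734 genes tested.

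Treatment was not the only difference between the groups. Xist, expressed from the inactive X chromosome of females, was at 0.764 and 1.73 CPM with APAP and between 289.6 and 914 CPM with saline, and Ddx3y, on the Y chromosome, was at 79.0 and 61.7 CPM in the APAP livers and at 0, 0 and 0.0668 CPM in the saline livers. The saline libraries thus had a female-like pattern, although the study describes male mice, which adds doubt to their assignment by elimination. Sex-linked expression and treatment coincided in all 5 libraries, so their parts in the differences below cannot be told apart. The tissue carried its defining markers, with albumin between 51545 and 129117 CPM. Of 5 hepatocyte markers 0 passed the test, against 7.23% of all tested genes. Their summed level was nevertheless 62278 and 106277 CPM with APAP and 110054 to 151010 CPM with saline. All 5 markers of pericentral hepatocytes, the zone that APAP damages, fell with APAP, against 3.53% of all tested genes. Their summed level was 961 and 1852 CPM with APAP and 7431 to 11943 CPM with saline. Of 5 periportal markers 1, Ass1, fell (log2 fold change −1.72, adjusted p = 0.0201, edgeR quasi-likelihood test), against the same 3.53%. All 5 had log2 fold changes below 0, while 7145 of all 13734 tested genes had values above 0. The sums of the periportal markers were 4943 and 5123 CPM with APAP and 10087 to 10930 CPM with saline. In whole tissue, fewer cells of a type and less RNA per cell cannot be told apart.

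Srxn1, Slc7a11 and Hmox1 rose with APAP, and the rest of the genes did not pass the test. These 3 of 10 stand against 3.7% of all tested genes that were called higher, and 0 of the 10 were called lower, against 3.53% of all tested genes (7.23% in either direction). The 10 genes were chosen with earlier results of these data known, so the shares here are a description and not a test of an excess. The study names a p under 0.05 with a change of 1.5-fold or more, without saying whether p was adjusted. With those thresholds on the unadjusted p, which are looser, 7 of 10 were higher, against 12.3% of all tested genes. By the same rule 0 were lower, against 11.2% (23.5% in either direction). In 8 of 10 genes both APAP libraries lay above all saline libraries, against 24% of all tested genes, and in 0 they lay below, against 20.1%. With scaling to library size only, 6 of 10 were called higher and 0 lower, against 1042 and 297 of all 13734 tested genes. The share of higher genes among all calls went from 51.2% to 77.8%. The median log2 fold change of the 10 genes was 0.97, and that of all tested genes was 0.03.

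To show where NRF2 could bind near these genes, their promoter windows (RefSeq, GRCm38.p6, from 250 bases before to 50 bases after a transcription start) were searched on both strands for TGACNNNGC, the core of the antioxidant response element. Windows were found for 8 of the genes. The core was present in 5 of the 8, the others being Keap1, Nqo1 and Slc7a11, and in 14% of all 27025 genes with a window. No match overlapped TGANTCA, the AP-1 motif that begins with the same letters. A match is a description of letters and not evidence of binding, and NRF2 sites of these genes may lie outside the windows. The stretches around the matches are given 5′ to 3′ in the direction of the gene, with the match in capitals. Matches that begin with GC lie on the opposite strand. The match of Nfe2l2 began at base −240 from the start (chr2:75704855-75704913, minus strand), that of Txnrd1 at −92 in 1 of its 3 windows (chr10:82859074-82859162, plus strand), that of Gclm at −134 (chr3:122245383-122245471, plus strand) and that of G6pdx at −57 (chrX:74428889-74428977, minus strand). The match of Srxn1 lay within the transcript and began at its base 29 (chr2:152105542-152105570, plus strand).
Nfe2l2: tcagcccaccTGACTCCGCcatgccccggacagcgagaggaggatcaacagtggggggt
Srxn1: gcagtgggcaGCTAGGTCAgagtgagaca
Txnrd1: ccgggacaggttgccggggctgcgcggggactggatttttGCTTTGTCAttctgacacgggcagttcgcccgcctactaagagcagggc
Gclm: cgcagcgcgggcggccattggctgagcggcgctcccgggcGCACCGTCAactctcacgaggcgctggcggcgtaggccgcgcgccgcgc
G6pdx: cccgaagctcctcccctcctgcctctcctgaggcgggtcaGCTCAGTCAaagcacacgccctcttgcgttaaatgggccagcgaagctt

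The mRNA of the sensor did not differ detectably between the groups. Keap1 (ENSMUSG00000003308, chromosome 9 of GRCm38, 21229730 to 21239332, minus strand) was at 46.3 and 51.7 CPM in the APAP livers and at 54.6, 43.0 and 48.4 CPM in the saline livers. The APAP libraries lay inside the saline range. Its log2 fold change was 0.0098 with a 95% interval of −0.47 to 0.49 (adjusted p = 0.984, edgeR quasi-likelihood test), and its sign turned with the scaling, to −0.030 with DESeq2-style size factors. The antisense gene Gm16754, which held 1 to 4 counts a library, contains 10.4% of the 50-base words of Keap1. This share of sequence found in other genes was 10.7% for G6pdx, 1.97% for Slc7a11, 0.776% for Gclm and 0 for the other 6.

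The transcript of NRF2 itself did not pass the test. Nfe2l2 (ENSMUSG00000015839, chromosome 2, 75675513 to 75704641, minus strand) was at 97.2 and 75.7 CPM in the APAP livers and at 71.6, 64.3 and 74.2 CPM in the saline livers. Both APAP libraries were above the saline libraries, but replicate 3 by only a small margin. The log2 fold change was 0.30 with a 95% interval of −0.20 to 0.81 (adjusted p = 0.427, edgeR quasi-likelihood test). Within each library, the level of Nfe2l2 per length was 2.60 and 1.81 times that of Keap1 with APAP and 1.62, 1.85 and 1.89 times with saline (exact permutation test over the 5 libraries, two-sided, p = 0.4, where the smallest p possible is 0.1). NRF2 is controlled mainly as a protein, and protein was not measured in these libraries.

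**Figure D1:**
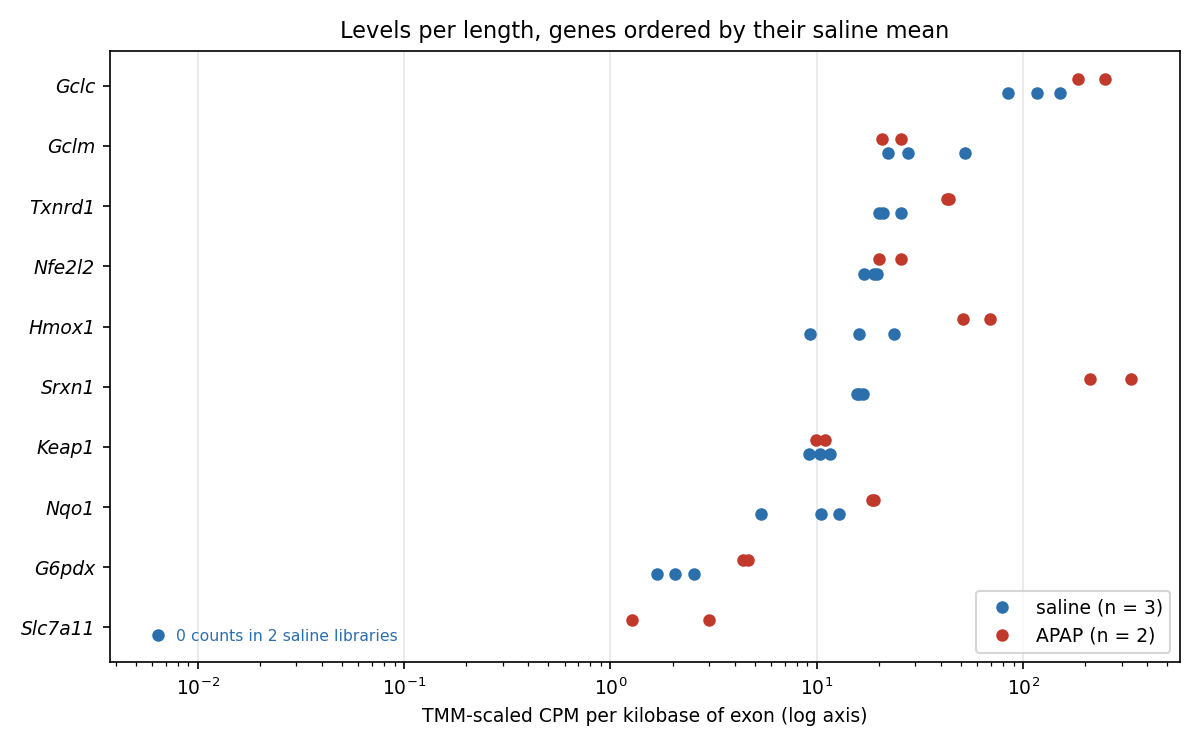
Level of each gene per kilobase of exon (TMM-scaled CPM per kilobase, log axis) in each saline library (blue, n = 3) and each APAP library (red, n = 2), with genes ordered by their saline mean. Srxn1 moved from the middle of the saline order to the top of the APAP order, next to Gclc, while the points of Keap1 overlap.

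Per length, Gclc was the most abundant of the 10 genes in saline livers, at 117 ± 33.1 CPM per kilobase (SD, n = 3). Gclm followed at 34.2 ± 16.1, Txnrd1 at 22.2 ± 3.06, Nfe2l2 at 18.4 ± 1.35, Hmox1 at 16.3 ± 7.22 and Srxn1 at 16.2 ± 0.507. Among these 5 genes, Hmox1 overlapped with each of the others and Gclm with Txnrd1, while all Gclm and Txnrd1 libraries lay above those of Nfe2l2, and all Nfe2l2 libraries above those of Srxn1. Keap1 at 10.4 ± 1.24 and Nqo1 at 9.54 ± 3.78 also overlapped, and G6pdx at 2.09 ± 0.426 was lower than all but Slc7a11. In APAP livers, Srxn1 at 273 ± 86.0 (SD, n = 2) and Gclc at 217 ± 46.6 were the 2 most abundant and overlapped with each other. Hmox1 at 60.4 ± 12.8 and Txnrd1 at 43.5 ± 0.685 came next and did not overlap. Gclm at 23.1 ± 3.52 and Nfe2l2 at 22.8 ± 4.01 overlapped, and Nqo1 at 18.7 ± 0.345, Keap1 at 10.4 ± 0.810, G6pdx at 4.51 ± 0.157 and Slc7a11 at 2.14 ± 1.24 followed without overlap.

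Among the genes of thiol repair, Srxn1 rose. Srxn1 (ENSMUSG00000032802, chromosome 2, 152105516 to 152111376, plus strand) encodes sulfiredoxin, which repairs peroxiredoxins whose cysteine has been over-oxidized. It was at 941 and 598 CPM in the APAP livers and at 44.3, 47.1 and 45.3 CPM in the saline livers. The saline libraries were close together, and the lower APAP library was far above them. The mean was 16.9-fold higher, with a log2 fold change of 4.08 (SE 0.29, adjusted p = 0.00181, edgeR quasi-likelihood test), and 0.896% of tested genes had a higher fitted value. The call held in all 13 alternatives, with log2 fold changes between 3.72 and 4.49. Of the summed CPM of the 10 genes, Srxn1 made up 39.3% and 25.8% with APAP and 3.90%, 4.36% and 5.25% with saline, a share that no scaling between libraries can move.

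Thioredoxin reductase, which keeps thioredoxin reduced with NADPH, missed the threshold narrowly. Txnrd1 (ENSMUSG00000020250, chromosome 10, 82859206 to 82897724, plus strand) was at 311 and 305 CPM in the APAP livers and at 141, 149 and 182 CPM in the saline livers. The groups were well separated. Its mean was 1.96-fold higher, with a log2 fold change of 0.97 (95% interval 0.43 to 1.51, adjusted p = 0.0506, edgeR quasi-likelihood test). Txnrd1 passed the threshold in 7 of 13 alternatives, among them DESeq2 (adjusted p = 4.36e-04), and in none of the 5 fits that left out a library (adjusted p 0.0532 to 0.220). The mitochondrial enzyme Txnrd2 was at 12.9 and 19.0 CPM in the APAP livers and at 33.9, 31.3 and 26.8 CPM in the saline livers (log2 fold change −0.94, adjusted p = 0.0716, same test). Per length, Txnrd1 was 14.97 and 9.94 times Txnrd2 with APAP and 2.59, 2.95 and 4.22 times with saline.

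The cystine importer went from near absence to clear expression. Slc7a11 (ENSMUSG00000027737, chromosome 3, 49892526 to 50443614, minus strand) encodes xCT, which brings in cystine in exchange for glutamate and so feeds glutathione synthesis. It had 715 and 285 counts with APAP (42.0 and 17.6 CPM) and 1, 0 and 0 counts with saline. A count of 3 corresponded to between 0.199 and 0.269 CPM in the saline libraries. The ratio of the pooled rates was 1240, with an exact 95% interval of 222 to 49042 that covers counting error only, and was 725 without APAP replicate 1, 1730 without APAP replicate 3 and at least 301-fold, against a floor of 3 counts over the group, without saline WT1, when 0 saline counts were left. The ratio was 787 without saline WT2 and 790 without saline WT3. The test gave an adjusted p of 0.00194 (edgeR quasi-likelihood test), and the call held in the 12 alternatives in which the gene could be tested. Despite this ratio, Slc7a11 stayed the least abundant of the 10 genes with APAP, at 3.02 and 1.26 CPM per kilobase. Slc3a2, the heavy chain that xCT needs at the membrane, was at 60.3 and 56.7 CPM in the APAP livers and at 58.0, 38.1 and 48.0 CPM in the saline livers (log2 fold change 0.29, adjusted p = 0.499, same test).

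**Figure D2:**
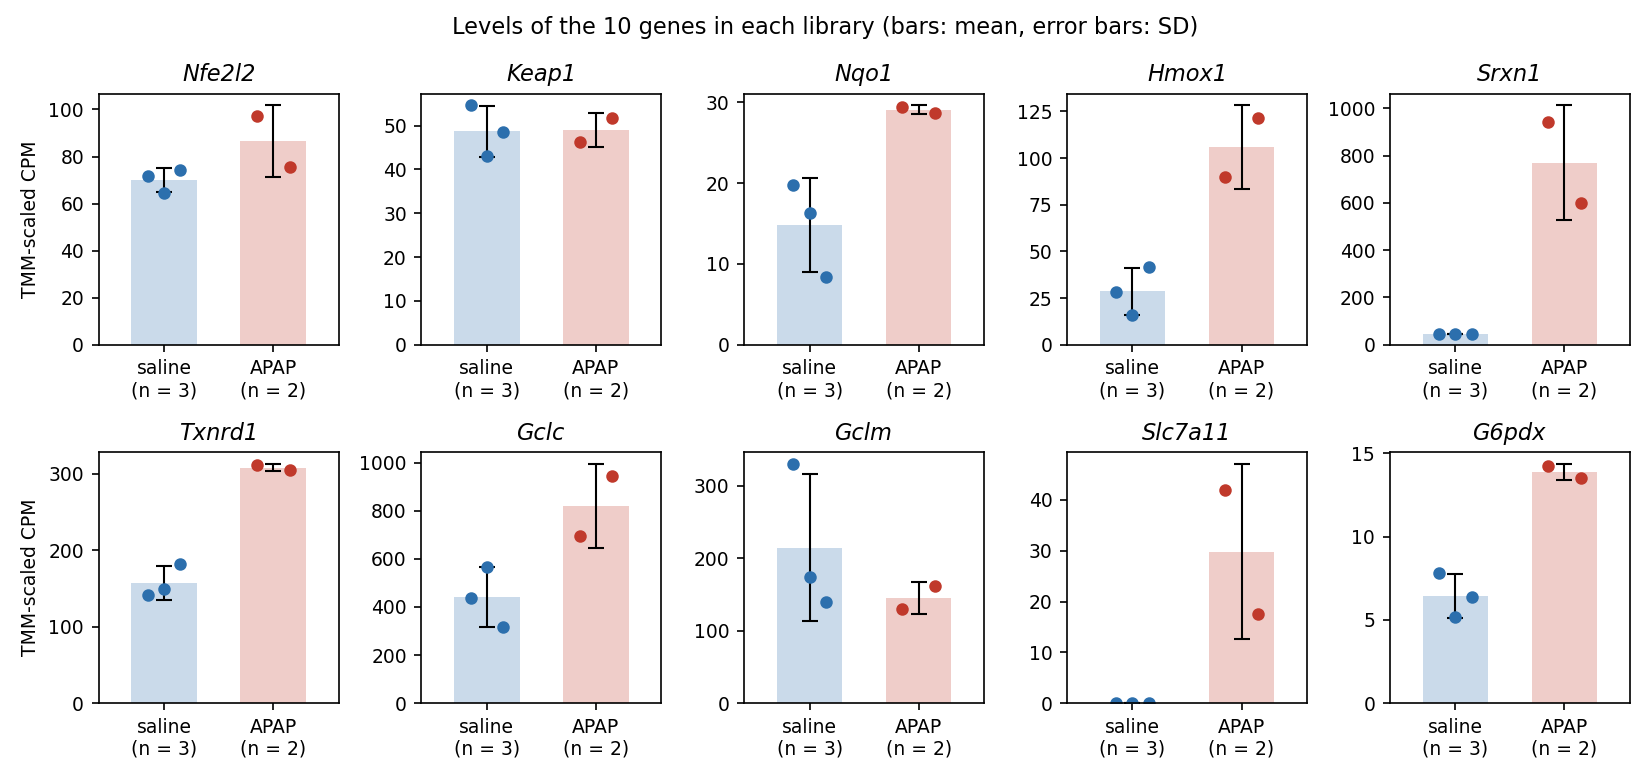
TMM-scaled CPM of each gene in the saline libraries (blue points, n = 3) and the APAP libraries (red points, n = 2), with bars for the mean, error bars for the SD and each axis starting at 0. Both APAP points lie above all saline points in 8 of the 10 genes, and Keap1 and Gclm are the exceptions.

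The subunits of glutamate-cysteine ligase, the rate-limiting enzyme of glutathione synthesis, had fitted fold changes of opposite sign, neither past the threshold. The catalytic subunit Gclc (ENSMUSG00000032350, chromosome 9, 77754535 to 77794485, plus strand) was at 694 and 943 CPM in the APAP livers and at 438, 565 and 317 CPM in the saline livers. Its groups did not overlap, and its mean was 1.86-fold higher, with a log2 fold change of 0.90 (95% interval 0.13 to 1.66, adjusted p = 0.148, edgeR quasi-likelihood test). The modifier subunit Gclm (ENSMUSG00000028124, chromosome 3, 122245557 to 122270732, plus strand) was at 130 and 161 CPM in the APAP livers and at 330, 175 and 140 CPM in the saline livers. Saline WT1 stood above the others, and APAP replicate 3 lay within the saline range. The log2 fold change of Gclm was −0.56 (95% interval −1.50 to 0.38, adjusted p = 0.434, same test), and −0.10 without saline WT1. Its log2 fold change lay below that of 80.4% of tested genes.

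The ratio of Gclc to Gclm per length, which does not depend on scaling between libraries, was 8.93 and 9.77 with APAP and 2.22, 5.41 and 3.78 with saline. Both APAP values were above all saline values. The difference of 1.39 on the log2 scale had p = 0.2 (exact permutation test, two-sided, smallest p possible 0.1) and was 1.05 without saline WT1. Gss, the enzyme of the second step of glutathione synthesis, was at 69.8 and 128 CPM with APAP and between 62.5 and 79.0 CPM with saline (log2 fold change 0.53, adjusted p = 0.323, edgeR quasi-likelihood test).

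Heme oxygenase rose. Hmox1 (ENSMUSG00000005413, chromosome 8, 75093591 to 75100596, plus strand), which breaks heme down to biliverdin, iron and carbon monoxide, was at 89.9 and 122 CPM in the APAP livers and at 28.1, 16.1 and 41.4 CPM in the saline livers. The lower APAP library was above the highest saline library. Its mean was 3.71-fold higher, with a log2 fold change of 1.89 (SE 0.38, adjusted p = 0.0358, edgeR quasi-likelihood test). The call was lost in 4 of the 5 fits that left out a library, with log2 fold changes of 2.10 without APAP replicate 1 (adjusted p = 0.116), 1.64 without APAP replicate 3 (adjusted p = 0.133), 1.89 without saline WT1 (adjusted p = 0.0923) and 1.604 without saline WT2 (adjusted p = 0.0881). Hmox2, the constitutive heme oxygenase, was at 45.9 and 35.5 CPM with APAP and between 35.7 and 62.8 CPM with saline, and its log2 fold change of −0.36 (adjusted p = 0.499, same test) turned to 0.070 with scaling to library size only. The count of Hmox2 is uncertain, because 47.7% of its words occur in Cdip1 on the opposite strand and the strand setting of the counting is not given in the sources used here.

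Hmox1 and Slc7a11 are also expressed by myeloid cells, and neutrophil markers and some monocyte markers were higher with APAP. The summed level of 10 neutrophil markers was 103 and 64.2 CPM with APAP and 2.06 to 5.28 CPM with saline. Of the 7 that could be tested 6 rose, against 3.7% of all tested genes. Ly6g, at 0.235 and 0.494 CPM with APAP, and Camp were at 0 in all saline libraries. Of 5 markers of monocytes and recruited macrophages 3 rose, Ccr2, Chil3 and Cd14, against the same 3.7%, while Ly6c2 and Lyz2 did not pass the test. The sums of the 5 were 288 and 189 CPM against 79.8 to 108 CPM. Cd14 alone held 206 and 52.2 CPM with APAP and 2.86 to 13.9 CPM with saline. Lyz2 was at 50.2 and 103 CPM with APAP and between 64.8 and 98.5 CPM with saline. The sums of 5 Kupffer cell markers, 198 and 369 CPM, overlapped with those of saline, 191 to 271 CPM, and 0 of the 5 passed the test. Within this list Marco was higher, at 56.7 and 123 CPM with APAP and 7.51 to 30.9 CPM with saline. Vsig4 was lower, at 22.9 and 32.1 CPM with APAP and 34.4 to 46.2 CPM with saline, while Clec4f, Timd4 and Cd5l overlapped. Of 4 cholangiocyte markers 1 rose, against 3.7% of all tested genes. The sums of the 4 were 70.6 and 42.2 CPM with APAP and 6.99 to 10.02 CPM with saline. The part of these cells in the rises of Hmox1 and Slc7a11 was not tested.

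The quinone reductase Nqo1 was about as far from the saline livers as Txnrd1, with a wider spread. Nqo1 (ENSMUSG00000003849, chromosome 8, 107388225 to 107403206, minus strand), which reduces quinones by 2 electrons, was at 29.4 and 28.7 CPM in the APAP livers and at 19.8, 16.3 and 8.35 CPM in the saline livers. The groups did not overlap, and saline WT3 was the lowest. Its mean was 1.96-fold higher, with a log2 fold change of 0.97 (95% interval 0.15 to 1.80, adjusted p = 0.145, edgeR quasi-likelihood test), and it passed the threshold in 0 of 13 alternatives. Its relative Nqo2, which uses another cofactor, fell from 172, 169 and 102 CPM with saline to 17.8 and 18.9 CPM with APAP, a log2 fold change of −3.01 (SE 0.32, adjusted p = 0.00521, same test) that held in all 13 alternatives. Per length, Nqo1 was at 4.30 and 3.95 times the level of Nqo2 with APAP and at 0.299, 0.251 and 0.214 times with saline. Of the words of Nqo2, 18.9% occur in Serpinb6a on the opposite strand, which had 131 to 355 counts a library.

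G6pdx, the entry enzyme of the pentose phosphate pathway and a source of NADPH, did not reach the threshold. G6pdx (ENSMUSG00000031400, chromosome X, 74409483 to 74429194, minus strand) was at 14.2 and 13.5 CPM in the APAP livers and at 7.80, 5.18 and 6.35 CPM in the saline livers. The groups were separated. Its mean was 2.15-fold higher, with a log2 fold change of 1.11 (95% interval 0.48 to 1.74, adjusted p = 0.0546, edgeR quasi-likelihood test), and it passed the threshold in 6 of 13 alternatives but in 0 of the 5 that left out a library. The gene is X-linked. Its neighbor Ikbkg shares 418 exon bases on the opposite strand and had 636 to 1601 counts a library. The retrogene G6pd2, which holds 7.65% of its words, had at most 2 counts.

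**Figure D3:**
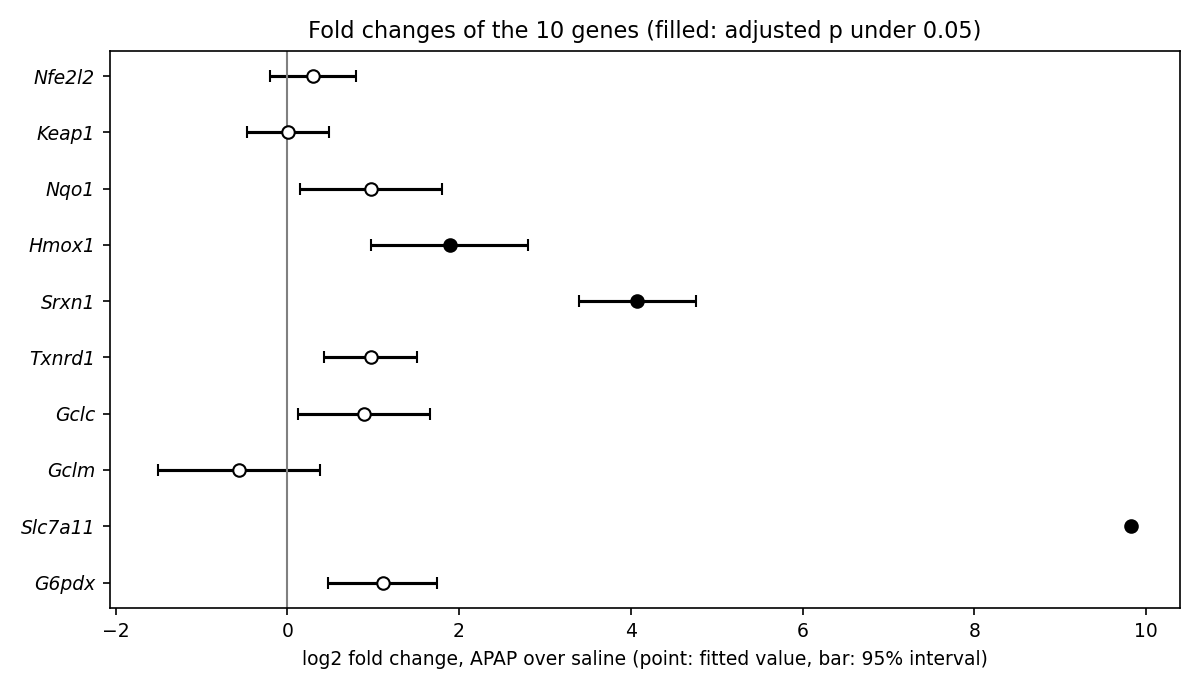
Fitted log2 fold change of each gene, APAP over saline, with 95% intervals from edgeR's quasi-likelihood fit and filled points for an adjusted p under 0.05. The intervals of Nfe2l2, Keap1 and Gclm include 0, those of Nqo1, Txnrd1, Gclc and G6pdx lie above 0 without a call, and no interval is drawn for Slc7a11, whose fitted value depends on 1 saline count.

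A wider list of 62 genes around NRF2 was read in the same fit, of which 61 were found by name and 57 could be tested. Of these, 8 rose, 5 fell and 44 did not pass the test, against 3.7% of all tested genes called higher and 3.53% called lower. This list was likewise chosen with earlier results of these data known. The median log2 fold change of the list was 0.00, beside 0.03 for all tested genes. The genes that rose and those that fell are described by role, and the same shares of all tested genes stand beside the counts of each role.

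Among 13 tested regulators and partners of NRF2, 3 rose and 0 fell, against 3.7% and 3.53% of all tested genes. MAFF and MAFK are small MAF proteins, the partners with which NRF2 binds DNA. Maff was at 85.0 and 103 CPM in the APAP livers and at 5.02, 2.06 and 10.1 CPM in the saline livers, a log2 fold change of 4.04 (adjusted p = 0.0128, edgeR quasi-likelihood test), and 3.97 without saline WT1, where the adjusted p was 0.0502. Without saline WT3 it was 4.75. Mafk was at 58.0 and 58.2 CPM in the APAP livers and at 11.7, 9.83 and 19.0 CPM in the saline livers, a log2 fold change of 2.11 (adjusted p = 0.0130, same test), which missed the threshold without APAP replicate 1 (2.11) and without saline WT2 (1.92). Mafg, the third small MAF on the list, was at 70.5 and 72.1 CPM with APAP and between 53.4 and 101 CPM with saline (log2 fold change −0.18, adjusted p = 0.754, same test). Mafg was chosen for the text after its values were seen.

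Sqstm1, which encodes p62, an autophagy receptor that can displace NRF2 from KEAP1, was at 891 and 1025 CPM in the APAP livers and at 492, 331 and 302 CPM in the saline livers. It was the most abundant regulator per length, and its log2 fold change of 1.35 (adjusted p = 0.0443, edgeR quasi-likelihood test) missed the threshold with DESeq2-style size factors and in 4 of the 5 fits without a library (1.45 and 1.24 without APAP replicates 1 and 3, 1.27 without saline WT2 and 1.22 without saline WT3). Bach1, a repressor that competes with NRF2 at the same elements, was at 56.8 and 98.7 CPM with APAP and between 32.6 and 49.4 CPM with saline (log2 fold change 1.01, adjusted p = 0.1004, same test), and was also chosen after its values were seen. Nfe2l1, the relative of NRF2, was at 35.3 and 32.7 CPM in the APAP livers and at 134, 33.9 and 43.5 CPM in the saline livers (adjusted p = 0.323, same test), where saline WT1 stood apart. The log2 fold change of Nfe2l1 was −1.05, and −0.17 without saline WT1. Cul3, the scaffold of the KEAP1 ligase, was at 62.3 and 67.1 CPM with APAP and between 66.4 and 71.9 CPM with saline, and was likewise chosen afterwards.

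**Figure D4:**
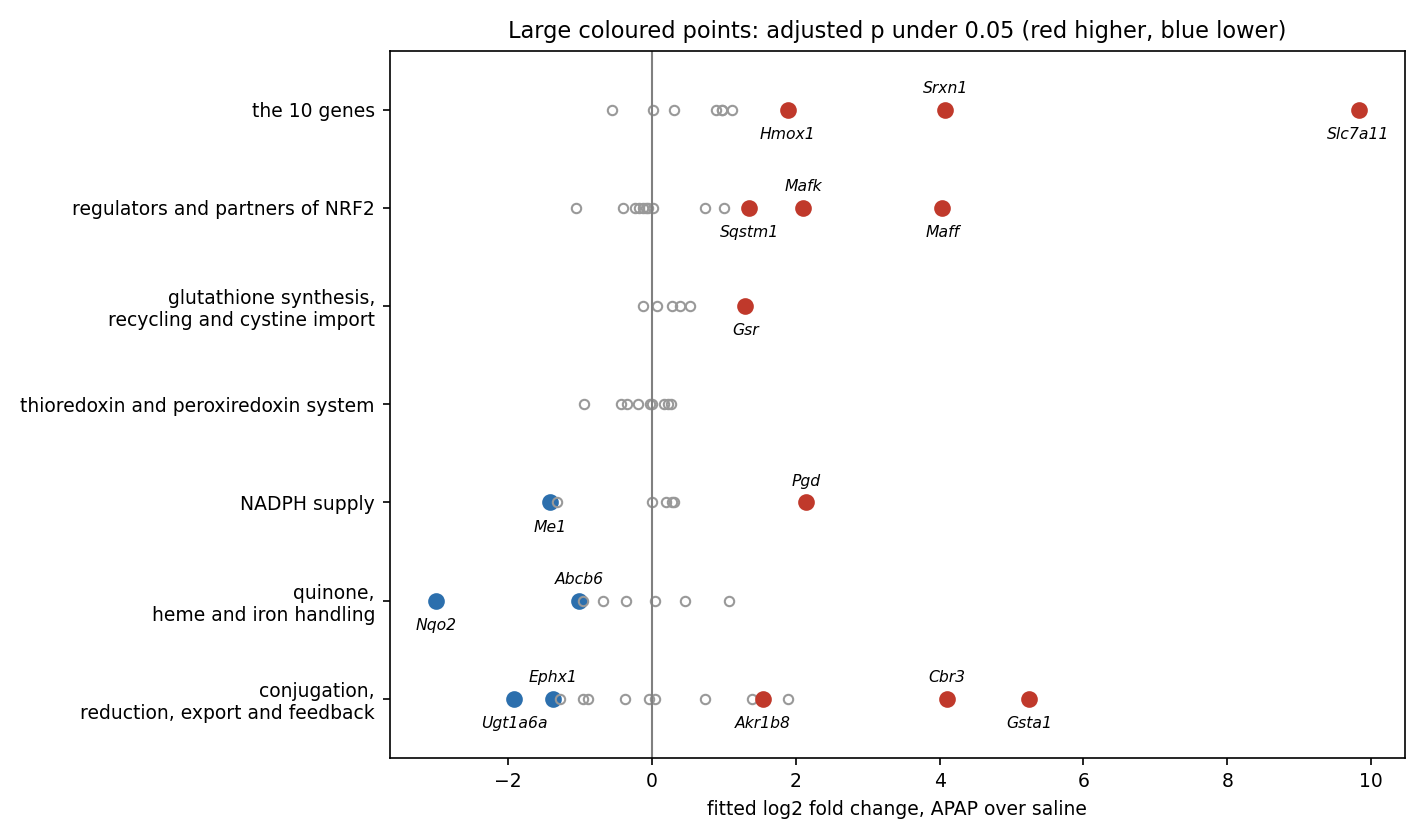
Fitted log2 fold changes, APAP over saline, of the 10 genes and of the tested genes of 6 lists around NRF2, 1 point per gene. Large red points rose and large blue points fell at an adjusted p under 0.05, and small open points did not pass. Genes that rose and genes that fell stand side by side in the lists of NADPH supply and of conjugation.

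Of 7 tested NADPH-supplying enzymes, 1 rose and 1 fell, against 3.7% and 3.53% of all tested genes. Pgd, which follows G6PDX in the pentose phosphate pathway, was at 127 and 136 CPM in the APAP livers and at 35.8, 28.8 and 24.6 CPM in the saline livers, a log2 fold change of 2.15 (SE 0.23, adjusted p = 0.00521, edgeR quasi-likelihood test) that held in all 13 alternatives. Me1, cytosolic malic enzyme, fell from 187, 144 and 160 CPM with saline to 72.7 and 50.3 CPM with APAP, a log2 fold change of −1.42 (adjusted p = 0.0287, same test). Me1 kept the call in 8 of 13 alternatives, and its log2 fold change was −1.70 without APAP replicate 1, −1.18 without APAP replicate 3, −1.30 without saline WT1 and −1.50 without saline WT2, with the call lost in each. With library size only it was −0.99 and the call was lost as well. Idh1, the most abundant of this list per length in saline livers, was at 105 and 215 CPM with APAP and between 309.5 and 471 CPM with saline (log2 fold change −1.32, adjusted p = 0.0868, same test), and its log2 fold change was −1.93 without APAP replicate 3. Me1 shares 32.8% of its words with other genes, chiefly Gm7049.

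In glutathione recycling, 1 of 6 tested genes rose, against 3.7% of all tested genes. Gsr, glutathione reductase, was at 178 and 156 CPM in the APAP livers and at 73.1, 64.8 and 66.1 CPM in the saline livers, a log2 fold change of 1.30 (SE 0.20, adjusted p = 0.0167, edgeR quasi-likelihood test). The call was lost without APAP replicate 1 (1.20), APAP replicate 3 (1.38) or saline WT2 (1.26). Gpx4, a peroxidase of lipid peroxides and the most abundant of this list per length in saline livers, was at 54.2 and 77.1 CPM in the APAP livers and at 90.2, 59.9 and 64.9 CPM in the saline livers (log2 fold change −0.12, adjusted p = 0.822, same test), with 61.7% of its words in a pseudogene, and was chosen after its values were seen. Of 9 tested thioredoxin and peroxiredoxin genes, 0 passed the test, against 7.23% of all tested genes in either direction. By the looser thresholds 0 were higher, against 12.3% of all tested genes, and 1, Txnrd2, was lower, against 11.2%. Prdx1, an abundant peroxiredoxin and substrate of sulfiredoxin, was at 961 and 1118 CPM in the APAP livers and at 1025, 839 and 737 CPM in the saline livers (log2 fold change 0.26, adjusted p = 0.609, same test). Per length, Srxn1 reached 1.06 and 0.577 times the level of Prdx1 with APAP, from 0.0466, 0.0606 and 0.0663 times with saline.

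Of 14 tested genes of conjugation, reduction, export and feedback, 3 rose and 2 fell, against 3.7% and 3.53% of all tested genes. Gsta1, an alpha class glutathione transferase, was at 70.3 and 34.3 CPM in the APAP livers and at 1.17, 1.66 and 1.27 CPM in the saline livers, a log2 fold change of 5.24 (adjusted p = 0.00182, edgeR quasi-likelihood test) that held in all 13 alternatives and was 4.64 without APAP replicate 1. Its identity is uncertain, since 89.7% of its words occur in other genes, chiefly Gm3776. Cbr3, a carbonyl reductase with 0.0892% of its words in another gene, was at 8.46 and 4.14 CPM in the APAP livers and at 0.269, 0.465 and 0.334 CPM in the saline livers, a log2 fold change of 4.10 (adjusted p = 0.00855, same test) that was 3.50 without APAP replicate 1 and then missed the threshold. Akr1b8, an aldo-keto reductase, was at 5.76 and 7.60 CPM in the APAP livers and at 2.87, 1.86 and 2.14 CPM in the saline livers, a log2 fold change of 1.55 (adjusted p = 0.0467, same test) that missed the threshold in each of the 5 fits without a library, between 1.32 and 1.75, and with DESeq2-style size factors (1.51).

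Ephx1, microsomal epoxide hydrolase, fell from 537, 349 and 429 CPM with saline to 134 and 203 CPM with APAP (log2 fold change −1.38, adjusted p = 0.0492, edgeR quasi-likelihood test), and the call was lost in each of the 5 fits without a library, between −1.72 and −1.11, and with DESeq2-style (−1.42) or upper-quartile scaling (−1.34). Ugt1a6a, a glucuronosyltransferase, fell from 219, 194 and 112 CPM to 30.3 and 62.2 CPM (log2 fold change −1.92, adjusted p = 0.0466, same test). Its value was −1.49 without APAP replicate 1, −2.54 without APAP replicate 3, −1.71 without saline WT1 and −1.84 without saline WT2, with the call lost in each, and 100% of its words occur in Ugt1a7c. Gstm1, the most abundant gene of this list per length in saline livers, was at 431 and 502 CPM in the APAP livers and at 1238, 940 and 544 CPM in the saline livers (log2 fold change −0.96, adjusted p = 0.188, same test).

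Against 3.53% of all tested genes called lower and 3.7% called higher, 2 of 8 tested genes of quinone, heme and iron handling fell and 0 rose. Besides Nqo2, this was Abcb6, a porphyrin transporter, at 28.2 and 40.9 CPM in the APAP livers and at 70.4, 71.1 and 67.7 CPM in the saline livers (log2 fold change −1.01, adjusted p = 0.0479, edgeR quasi-likelihood test). The call of Abcb6 was lost in each of the 5 fits without a library, between −1.32 and −0.77, and with library size only (−0.64), and 90.3% of its words occur in Gm29253. Ftl1, the ferritin light chain and most abundant gene of this list per length, was at 1555 and 1861 CPM with APAP and between 2378 and 3174 CPM with saline (log2 fold change −0.68, adjusted p = 0.236, same test), with 90.6% of its words in other genes. Fth1, the ferritin heavy chain, chosen after its values were seen, was at 3040 and 2873 CPM in the APAP livers and at 1815, 1208 and 1216 CPM in the saline livers (log2 fold change 1.06, adjusted p = 0.0937, same test).

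**Figure D5:**
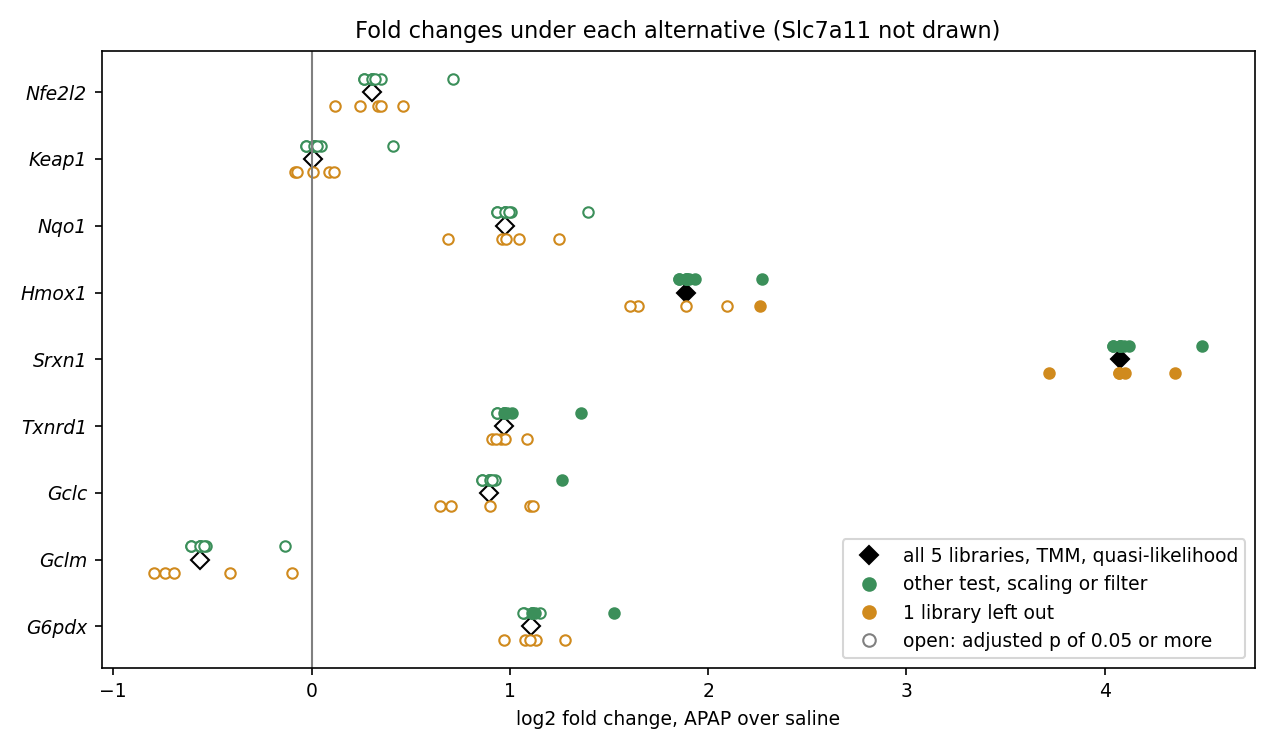
Log2 fold change of 9 of the 10 genes, APAP over saline, with all 5 libraries (diamonds), with another test, scaling or filter (green) and with 1 library left out (orange). Filled symbols have an adjusted p under 0.05. Srxn1 is filled throughout, Hmox1 is open in 4 of the 5 fits without a library, and Keap1 lies on either side of 0.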

How the data were processed

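RNA-Seq of mouse liver was read from 1 table. The authors sequenced on an Illumina NovaSeq platform and deposited raw counts per gene, obtained with HISAT2. Builds named in the labels are GRCm38 and mm10. The annotation and strand setting are not given in the sources used here. APAP replicate 2 was not analysed here, and 5 columns of FPKM were not used. Libraries differed by far more than sampling noise within each group (chi-square per degree of freedom 46.7 to 99.8).

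Counts were filtered with filterByExpr (minimum count 10, minimum total 15), scaled by TMM and tested with edgeR 4.0.16 (glmQLFit, glmQLFTest) in R 4.3.3. TMM factors were 1.27 and 1.09 with APAP and 0.783, 0.980 and 0.938 with saline. Standard errors were derived from the F statistic. Alternatives were the likelihood ratio and exact tests, DESeq2 1.42.0, 3 scalings, 2 filters and leaving out each library. The test was checked on simulated data. Levels per length used exon unions of GENCODE M21 (34344 of 34745 identifiers matched), and shared sequence was the percent of 50-base words of the longest coding transcript found in other genes. The members and lists were chosen with earlier results of these data known. Named in the text were all members and, of the wider list, genes with an adjusted p under 0.05 and at least 1 CPM, the most abundant gene of each role, close relatives of members, and those marked as chosen later. Python 3.11.15 was used for annotation and plots.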

Additional observations from a re-analysis of the deposited data

How the results depend on the processing

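Of the 10 genes, 3 were called by the quasi-likelihood test, 5 by the likelihood ratio test, the exact test, DESeq2, without the filter or at an adjusted p under 0.1, 6 with scaling to library size only, and 2 to 3 with 1 library left out. Of the wider list, 13 genes were called, 20 by the likelihood ratio test, 22 by DESeq2 and 4 to 10 with 1 library left out. Of all 13734 genes tested, 993 were called, 1835 by the likelihood ratio test, 1776 by the exact test and 2093 by DESeq2. Among the same genes, 1339 were called with library size only and 1901 at an adjusted p under 0.1. Without the filter more genes were tested, and 1402 of 19935 were called. Leaving out 1 saline library gave 165 to 922 calls among 13443 to 13700 tested genes. Fits without an APAP replicate assume that the lone library varies like the saline libraries. Keap1 turned to −0.029 with DESeq2, −0.030 with DESeq2-style size factors, −0.082 without APAP replicate 3 and −0.074 without saline WT2 (leaving out 1 library gave −0.082 to 0.11). Hmox2 turned to 0.070 with library size only. The cause was not tested. Scaling to library size only moved the median log2 fold change of all genes from 0.03 to 0.42, raised the share of called genes that were higher from 51.2% to 77.8%, and put Keap1 at 0.41, close to that median. Of the 129 alternative values for the 10 genes, 107 kept their direction and their side of the threshold. Slc7a11 could not be tested with at least 10 counts in every library. No paired analysis was possible because the names WT1 to WT3 do not tie the saline columns to numbered samples. A count of 3 corresponded to between 0.176 and 0.269 CPM, which limits only Slc7a11 in saline livers among the 10 genes.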
